A study of Homo sapiens with 6 samples.

Results

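Deep intronic elements were peaks of run-on transcription that lay inside an annotated gene, touched no exon and were more than 10 kb from every annotated transcript start. They were picked by position alone, from 3 lists of dREG peaks made from K562 cells and the GENCODE release 29 annotation of GRCh38, with only chromosomes 1 to 22 and X used. Of the peaks named PRO-seq 1M, 1004 among 24707 met the rule (4.06%, 95% Wilson interval 3.82 to 4.32). The qPRO-seq 1M list held 2580 among 38177 (6.76%, 6.51 to 7.01). The qPRO-seq 250k list held 500 among 15562 (3.21%, 2.95 to 3.50). They are called deep intronic peaks below, and a gene that contains one is its host. Where 3 values follow each other without a list's name, they stand in the order used here.

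Active enhancers and promoters both start transcription in opposite directions from paired sites, and the short RNAs of most enhancers are degraded quickly. Run-on sequencing sees them because it records the polymerases themselves. Precision run-on sequencing (PRO-seq) lets engaged polymerases add a biotin-labelled nucleotide, after which the nascent RNA is captured and its 3′ end read. The dREG classifier then searches the reads of both strands for the paired pattern of initiation. Inside a gene, an element far from any start can be an enhancer of its host or of another gene, an alternative promoter missing from the annotation, or the start of an unannotated or RNA polymerase III transcript. The lists do not tell these apart.

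K562 is an established human leukaemia line that carries the BCR-ABL1 fusion and has erythroid features; the labels call it lymphoblastoid. The cells were untreated, and 6 libraries formed 3 groups of 2 biological replicates at least 3 passages apart. PRO-seq 1M used the published protocol with 3 affinity purifications on 1M permeabilized cells, qPRO-seq 1M used a quicker protocol with 1 purification on the same input, and qPRO-seq 250k used the quicker protocol on 250k cells. PCR ran for 11 cycles with 1M cells as input and for 14 with 250k. Each group was analysed as 1 list that stands for both replicates, so no value had a spread between replicates. The read depth behind each list is unknown. Intervals cover counting error alone and are too narrow, because neighbouring peaks are not independent. Of 12 erythroid and leukaemia marker genes, 11, 12 and 9 had a peak within 500 bp of a start in the 3 lists. Among markers of other blood cells, CD3E, PAX5 and CD14 had none in any list, SPI1 had one in every list and EBF1 had one in both 1M lists.

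A small set of the deep intronic peaks touched the window around a transcript start that RefSeq (GRCh38.p14) annotates and GENCODE release 29 does not. Each window ran from 250 bases before the RefSeq start to 50 bases after it, so a peak could touch it without covering the start. The matching shares over all peaks are not given here. Start windows of 18 RefSeq genes, 13 long noncoding and 5 protein coding, were touched by 9 (0.896%), 16 (0.620%) and 5 (1.00%) of the deep intronic peaks. In all, 5 windows were touched in every list, and 4 of them are printed because the peak centre lay within 172 bp of the RefSeq start in each list. Each sequence runs from 250 bases before the RefSeq start to 30 bases after it, 5′ to 3′ on the strand of the RefSeq transcript. Capitals mark matches, on either strand, to the GC box GGGCGG, the ETS motif GGAAGT and the E-box CANNTG; matches of different motifs do not overlap in these 4 windows.
TMEM181 (chr6:158559841-158560120, + strand): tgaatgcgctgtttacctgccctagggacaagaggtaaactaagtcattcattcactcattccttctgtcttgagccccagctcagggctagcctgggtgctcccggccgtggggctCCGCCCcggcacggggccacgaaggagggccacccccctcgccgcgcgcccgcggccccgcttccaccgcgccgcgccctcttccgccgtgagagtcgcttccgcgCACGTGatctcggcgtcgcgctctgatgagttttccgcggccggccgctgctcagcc
NCAM2 (chr21:21146912-21147191, + strand): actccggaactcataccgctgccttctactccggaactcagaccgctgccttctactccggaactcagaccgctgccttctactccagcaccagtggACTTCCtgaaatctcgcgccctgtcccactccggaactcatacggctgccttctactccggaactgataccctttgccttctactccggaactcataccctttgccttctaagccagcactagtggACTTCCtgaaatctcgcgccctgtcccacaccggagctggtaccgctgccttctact
LOC105369213, inside PLCG2 (chr16:81752282-81752561, + strand): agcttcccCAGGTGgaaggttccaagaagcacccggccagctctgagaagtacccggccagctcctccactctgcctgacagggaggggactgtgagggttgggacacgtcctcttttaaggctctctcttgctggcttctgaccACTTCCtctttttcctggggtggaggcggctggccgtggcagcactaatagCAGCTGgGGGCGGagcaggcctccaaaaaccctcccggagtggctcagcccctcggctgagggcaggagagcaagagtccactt
LOC124903738, inside GSE1 (chr16:85462639-85462918, - strand): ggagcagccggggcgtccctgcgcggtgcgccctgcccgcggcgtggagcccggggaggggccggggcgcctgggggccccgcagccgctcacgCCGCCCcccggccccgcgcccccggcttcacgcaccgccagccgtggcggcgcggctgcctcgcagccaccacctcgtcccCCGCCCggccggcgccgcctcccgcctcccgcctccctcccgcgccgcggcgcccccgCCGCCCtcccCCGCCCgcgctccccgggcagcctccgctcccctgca

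The TMEM181 window held 1 GC box and 1 E-box, and its GC content was 68.2%. Its deep intronic peaks were centred 31, 21 and 21 bp from the RefSeq start in the 3 lists, and 23.3 to 23.4 kb from the nearest GENCODE start. Their scores stood at percentiles 92.8, 96.4 and 79.3 of the respective lists. NCAM2 encodes a neural cell adhesion molecule, and its peaks lay 79.3 to 79.4 kb from a GENCODE start at percentiles 94.7, 97.7 and 97.8. The NCAM2 window held 2 ETS matches inside a tandem repeat: 59.9% of its overlapping 12-base words occurred more than once within it, a share reached by 0.326% of the 34961 RefSeq windows. Unique placement of reads in that repeat was not tested. The window inside PLCG2, a phospholipase of immune receptor signalling, held 2 E-boxes, 1 ETS match and 1 GC box; its peaks were centred 112, 172 and 112 bp from the RefSeq start, at percentiles 96.2, 99.6 and 95.1. The window inside GSE1 had a GC content of 86.8% and 4 GC boxes, with centres 2, 28 and 22 bp from the start at percentiles 80.1, 81.9 and 58.1. In the fifth shared window, that of LOC105370998, the centres lay 484, 264 and 384 bp away. Over all RefSeq windows of the same length, 44.2% held a GC box, 21.8% the ETS motif and 66.2% an E-box; among the 18 windows under deep intronic peaks the numbers were 4, 4 and 15. A further 4 motifs were searched and had no match in the printed windows. GATAA was in 21.9% of all windows and 5 of the 18. The AP-1 motif TGANTCA was in 7.31% and 4 of the 18. The RUNX motif TGTGGT was in 12.2% and 3 of the 18, and the CCAAT box in 33.6% and 4 of the 18. These RefSeq genes were chosen after their values were seen.

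Deep intronic peaks were thinly spread over a large territory. Intronic sequence more than 10 kb from every start made up 805 Mb, or 53.4% of the 1507 Mb of intronic sequence. It held 1.25 peaks per Mb in PRO-seq 1M, 3.21 in qPRO-seq 1M and 0.621 in qPRO-seq 250k. The order of the lists depended on their length: among the 15562 top-scored peaks of each, 415, 732 and 500 were deep intronic, or 0.516, 0.910 and 0.621 per Mb. Intronic sequence more than 500 bp and at most 10 kb from a start (650 Mb) held 3.76, 8.64 and 1.92 peaks per Mb, which is 3.01, 2.69 and 3.09 times the deep density. The fall went on within the deep territory. From 10 to 15 kb the density was 1.70, 4.24 and 0.848 peaks per Mb, and at 50 to 100 kb it was 0.689, 2.05 and 0.352. Beyond 100 kb, 25, 92 and 19 peaks remained in 62.5 Mb, or 0.400, 1.47 and 0.304 per Mb. Each list was ordered the same way over all 6 distance bands. The median distance to the nearest start was 20.8 kb in PRO-seq 1M, 21.5 kb in qPRO-seq 1M and 20.7 kb in qPRO-seq 250k.

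**Figure D1:**
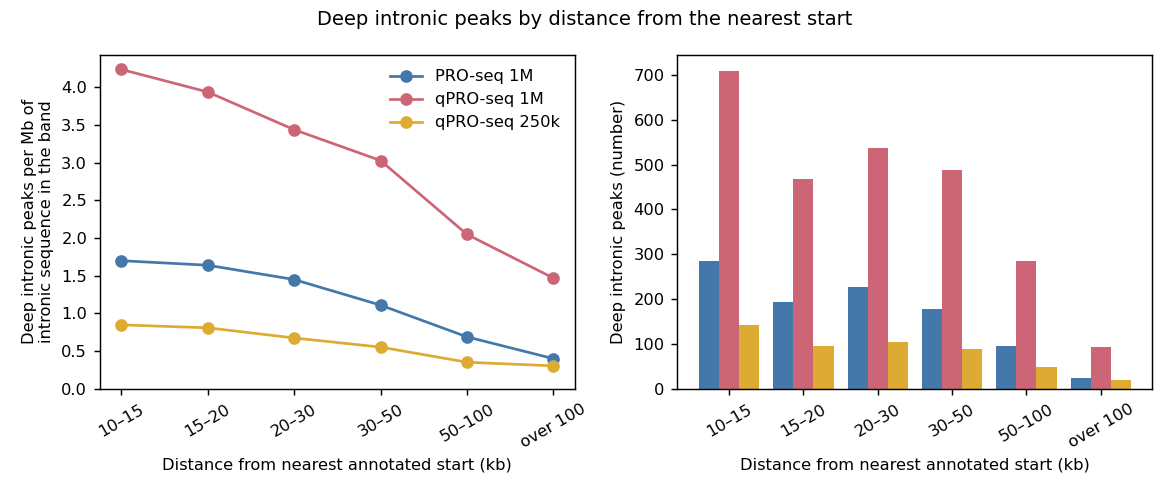
Deep intronic peaks by distance from the nearest annotated start (kb), for the 3 lists. Left, peaks per Mb of intronic sequence in each distance band; right, number of peaks. In each list the density falls from band to band, from 4.24 to 1.47 per Mb in qPRO-seq 1M.

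The rule's boundary cut through a continuous range. The nearest members lay 10008 bp (in GAB2, PRO-seq 1M), 10013 bp (in MYO3B and AC012594.1, qPRO-seq 1M) and 10010 bp (in RHPN2, qPRO-seq 250k) from a start. The nearest intronic peaks left out lay at 9955, 10000 and 9978 bp. At the other end, the farthest peak of PRO-seq 1M and that of qPRO-seq 250k were the same element in ROBO1, which encodes an axon guidance receptor. It spanned chr3:79300661-79301310 in PRO-seq 1M, 206577 bp from a start, and the score stood at percentile 63.3 there, 87.6 in qPRO-seq 1M and 81.2 in qPRO-seq 250k. ROBO1 had no start peak in PRO-seq 1M or qPRO-seq 250k. The farthest peak of qPRO-seq 1M, chr3:118270211-118270690 in the long noncoding gene AC068633.1, lay 272619 bp from a start, and no peak of another list overlapped it.

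Scores of deep intronic peaks were lower than those at starts and close to those of other intronic peaks. The median score percentile, which is the share of a list's peaks with a lower score, was 31.3 in PRO-seq 1M, 39.1 in qPRO-seq 1M and 33.6 in qPRO-seq 250k. Intronic peaks within 10 kb of a start had medians of 31.2, 38.2 and 30.8, and peaks within 500 bp of a start had 58.9, 59.9 and 55.7. Strong deep intronic peaks did occur: 30 of 1004 (2.99%, 2.10 to 4.23), 138 of 2580 (5.35%, 4.55 to 6.29) and 25 of 500 (5.00%, 3.41 to 7.28) were in the top decile of their list. Median widths were 400, 410 and 390 bp, close to the 410, 410 and 390 bp of intronic peaks within 10 kb of a start. Peaks at starts were wider, with medians of 480, 470 and 440 bp.

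Deep intronic peaks often stood alone. No other peak lay within 10 kb of 65.3% (62.3 to 68.2), 55.0% (53.0 to 56.9) and 77.4% (73.5 to 80.8) of them in the 3 lists. For intergenic peaks beyond 10 kb from a start, which share the distance limit, the shares were 52.4% (50.1 to 54.6), 47.0% (45.5 to 48.6) and 61.6% (58.5 to 64.6). Joining members within 500 bp gave 902, 2260 and 469 elements, of which 90.0%, 88.0% and 94.0% were a single peak. The largest held 4, 5 and 4 peaks.

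The lists, which differ in length, shared deep intronic peaks to different degrees. In PRO-seq 1M, 861 of 1004 (85.8%, 83.5 to 87.8) shared at least 1 bp with a qPRO-seq 1M peak, against 90.6% of all PRO-seq 1M peaks. In qPRO-seq 250k, 467 of 500 (93.4%, 90.9 to 95.3) were overlapped by qPRO-seq 1M, against 96.6% of all, and 392 (78.4%, 74.6 to 81.8) by PRO-seq 1M, against 91.2% of all. The other directions were lower. In PRO-seq 1M, 396 (39.4%, 36.5 to 42.5) were overlapped by qPRO-seq 250k, against 60.2% of all. In qPRO-seq 1M, 890 of 2580 (34.5%, 32.7 to 36.4) were overlapped by PRO-seq 1M, against 63.3% of all, and 490 (19.0%, 17.5 to 20.6) by qPRO-seq 250k, against 44.1% of all. With each list reduced to its 15562 top-scored peaks the range narrowed. Overlap of deep intronic PRO-seq 1M peaks was then 78.6% by qPRO-seq 1M and 63.9% by qPRO-seq 250k. Overlap of deep intronic qPRO-seq 1M peaks was 45.5% by the PRO-seq list and 47.1% by the 250k list. For deep intronic peaks of the 250k list it was 55.6% by the PRO-seq list and 70.2% by the other. The matching shares over all peaks at equal length are not given here. Of the overlapped peaks in the full lists, 98.3% to 99.9% met another deep intronic peak.

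Set against intronic peaks within 10 kb of a start, the overlap differed beyond counting error only for qPRO-seq 1M, among the 6 directions compared. There, overlap by PRO-seq 1M was lower for deep intronic peaks (difference -6.99 percentage points, 95% Newcombe interval -9.22 to -4.74), and so was overlap by qPRO-seq 250k (difference -4.01, -5.86 to -2.12). The second difference had an interval that included 0 under 3 of its 5 alternatives, with values of -1.78, -3.70 and -1.53. The remaining 4 differences lay between -1.14 and -0.345 points, with intervals that included 0. When each list was reduced to its 15562 top-scored peaks, 2 of these turned: deep intronic peaks were then overlapped by qPRO-seq 1M more often, by 9.50 points (4.49 to 14.2) in PRO-seq 1M and 6.45 points (1.54 to 11.1) in qPRO-seq 250k. Score went with overlap throughout. Across the score quartiles of the qPRO-seq 1M list, from lowest to highest, PRO-seq 1M overlapped 11.0%, 25.1%, 48.0% and 83.5% of deep intronic peaks. The same shares were 19.2%, 35.2%, 57.8% and 84.8% for intronic peaks nearer to a start, and 51.9%, 69.6%, 88.5% and 98.8% for peaks at starts. Within score deciles the first difference was -8.18 points (-10.1 to -6.26).

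**Figure D2:**
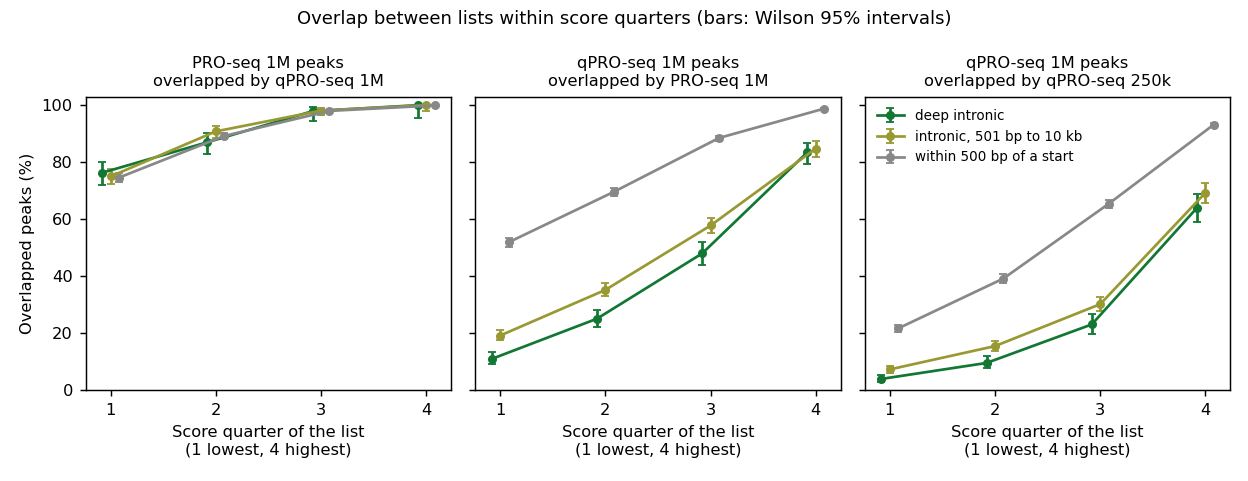
Share of peaks (%) overlapped by another list, within quartiles of the score in their own list, for deep intronic peaks, intronic peaks over 500 bp and up to 10 kb from a start and peaks at starts. Points are shares, bars are Wilson 95% intervals; in the qPRO-seq 1M panels deep intronic peaks lie lowest in every quartile, at 11.0% to 83.5% for overlap by PRO-seq 1M.

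Joining the deep intronic peaks of the 3 lists gave 2651 regions. A peak in all 3 lists was present in 367 (13.8%, 12.6 to 15.2), and 436 (16.4%) had one in both 1M lists alone. In qPRO-seq 1M alone there were 1600 regions (60.4%, 58.5 to 62.2), against 136 in PRO-seq 1M alone and 28 in qPRO-seq 250k alone. The qPRO-seq lists shared 79, and PRO-seq 1M and qPRO-seq 250k shared 5. These counts cover deep intronic peaks only, and 20 of the 2651 regions had a peak of another class in another list. The qPRO-seq 1M list is the longest, with 38177 peaks against 24707 and 15562. Shares of joined regions over all peaks are not given here. Of all qPRO-seq 1M peaks, 63.3% were overlapped by PRO-seq 1M and 44.1% by qPRO-seq 250k. Of 1232 protein-coding hosts in any list, 252 (20.5%) were hosts in all 3, 249 in both 1M lists alone and 637 (51.7%) in qPRO-seq 1M alone.

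The 5 top-scored qPRO-seq 1M members that deep intronic peaks of both other lists overlapped had protein-coding or long noncoding hosts. The first, chr1:21022161-21022760, lay in EIF4G3, a translation initiation factor gene, 18.2 kb from a start; its score was 1.37 in qPRO-seq 1M (percentile 99.9), with percentiles of 55.8 in PRO-seq 1M and 66.9 in qPRO-seq 250k. The second, chr12:1605691-1606460, lay in WNT5B, which encodes a secreted WNT ligand, 10.2 kb from a start, and its percentiles were high in every list: 97.5, 99.9 and 98.4 in the 3 lists. WNT5B had no start peak in qPRO-seq 1M. The others were chr3:141805121-141805850 in GRK7 and AC112504.2, chr20:58550421-58551060 in the long noncoding gene APCDD1L-DT and chr1:12657221-12657950 in AADACL4. In PRO-seq 1M these 3 stood at percentiles 62.1, 89.3 and 90.4, and in qPRO-seq 250k at 65.8, 83.9 and 82.0. Neither APCDD1L-DT nor AADACL4 nor GRK7 had a start peak in qPRO-seq 1M, whereas EIF4G3 and AC112504.2 had one.

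The top-scored qPRO-seq 1M members that no peak of another list overlapped were in CRISP2, DNAI2 and MCC, at score percentiles of 97.7, 93.4 and 91.3. None of the 3 hosts had a start peak in qPRO-seq 1M. For CRISP2, a sperm protein gene, and MCC, a colorectal tumour suppressor candidate, the nearest PRO-seq 1M peak was 46950 and 54970 bp away. For DNAI2, a gene of ciliary dynein, it was only 260 bp away.

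Most deep intronic peaks had a protein-coding host. The numbers were 747 of 1004 (74.4%, 71.6 to 77.0), 1947 of 2580 (75.5%, 73.8 to 77.1) and 371 of 500 (74.2%, 70.2 to 77.8). A further 238, 574 and 122 lay in long noncoding genes alone, and 65, 191 and 37 lay in more than 1 gene. Most deep intronic sequence was also in protein-coding genes, 624 Mb when summed gene by gene, against 805 Mb in all. Counted once per host, peaks per Mb there were 1.24, 3.23 and 0.603, near the 1.25, 3.21 and 0.621 over all deep intronic sequence. A host with a start peak was present for 567 (56.5%, 53.4 to 59.5), 1568 (60.8%, 58.9 to 62.6) and 231 (46.2%, 41.9 to 50.6) of the deep intronic peaks. Protein-coding genes with a start peak held 267, 284 and 211 Mb of the 624 Mb. The matching share of sequence over hosts of every type is not given here. Of the 19864 protein-coding genes, 9179 (46.2%) had deep intronic sequence. Of these, 540 (5.88%), 1179 (12.8%) and 311 (3.39%) were hosts. Hosts were long: their median deep intronic length was 84.8, 87.1 and 78.2 kb, against 21.6, 19.3 and 22.4 kb in the genes that were not hosts. The definition of a host favours long genes, because more deep intronic sequence leaves more room for a peak. A single deep intronic peak was the rule, in 398, 749 and 265 hosts, and 9, 46 and 1 hosts had 5 or more.

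RUNX1, the transcription factor of blood stem cell formation that is often mutated in leukaemia, had the most deep intronic peaks among protein-coding genes in qPRO-seq 1M. It held 18 there, and 3 in each of the other lists, within 938 kb of deep intronic sequence on chromosome 21. All 3 PRO-seq 1M peaks and all 3 qPRO-seq 250k peaks were overlapped by qPRO-seq 1M. In the other direction, only 3 of the 18 qPRO-seq 1M peaks were overlapped by PRO-seq 1M and 3 by qPRO-seq 250k. The strongest RUNX1 peak, chr21:35026611-35027160 in qPRO-seq 1M, lay 22.1 kb from a start at percentile 86.3, and had counterparts in both other lists. The 18 peaks ranged from percentile 2.10 to 86.3, with a median of 29.5, and from 14.3 to 120 kb from a start. Start peaks of RUNX1 were present in all lists, 6 in PRO-seq 1M, 8 in qPRO-seq 1M and 3 in qPRO-seq 250k.

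Other hosts were also very long genes. KAZN, which encodes a protein of cell junctions, held 6 peaks in PRO-seq 1M, 17 in qPRO-seq 1M and 4 in qPRO-seq 250k within 1059 kb, and had a start peak in both 1M lists but not in qPRO-seq 250k. ARHGAP6, a GTPase-activating protein gene on chromosome X, held 7, 14 and 4 peaks with a start peak in every list. PRKCA, which encodes protein kinase C alpha, held 3, 11 and 1, and its start peaks stood at percentiles 96.5, 85.1 and 63.2. NFIA, a transcription factor gene, held 2, 9 and 1, and PLCL1, a phospholipase-related gene, held 2, 9 and 2. ADGRB3, a receptor gene known from the brain, held 2, 8 and 0. The retinoic acid synthesis gene ALDH1A2 held 4, 8 and 0, and its start peaks were among the strongest of these hosts, at percentiles 99.6, 98.9 and 98.8. STEAP1B held 5, 8 and 0, and the homeobox gene CUX1 held 4, 7 and 3. NFIA, PLCL1, ADGRB3, STEAP1B and CUX1 had a start peak in every list.

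GSE1 had the most peaks in PRO-seq 1M, 10, with 9 in qPRO-seq 1M and 3 in qPRO-seq 250k. Only 4 of its 10 PRO-seq 1M peaks were overlapped by qPRO-seq 1M, whereas all 3 of its qPRO-seq 250k peaks were overlapped by both 1M lists. MAML2, a coactivator gene of Notch signalling, held 6, 6 and 3 peaks. Its start peak was weak, at percentile 5.99 in PRO-seq 1M and 12.7 in qPRO-seq 1M, and absent from qPRO-seq 250k, while its strongest deep intronic peak reached percentiles 80.1, 89.5 and 99.0. DCHS2, a cadherin gene, held 5, 5 and 1 peaks and had a start peak in qPRO-seq 1M alone. CPED1 held 2, 4 and 3 peaks and had a start peak in every list.

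Several hosts with many deep intronic peaks had no start peak in any list. AC026316.5, an uncharacterised protein-coding locus on chromosome 3 with 294 kb of deep intronic sequence, held 6, 14 and 4 peaks, and the strongest stood at percentile 99.0 in qPRO-seq 1M. The noncoding gene AC026316.4 covers the same sequence and has the same peaks. ASIC2, which encodes an acid-sensing ion channel of neurons, held 3, 7 and 3, and the 3 peaks of each smaller list were overlapped by both other lists. Their strongest percentiles were 80.0, 90.9 and 76.3. DLGAP1, a gene of the postsynaptic scaffold, held 8, 6 and 5 peaks, and all 6 in qPRO-seq 1M were overlapped by PRO-seq 1M. Peaks joined within 500 bp gave only 5, 3 and 2 elements in DLGAP1. CR1, the complement receptor of red blood cells, held 3, 5 and 3 within 81.6 kb. The strongest CR1 peak, chr1:207519381-207520140 in qPRO-seq 1M, lay 23.0 kb from a start at percentile 99.8 and was overlapped by both other lists. MTSS1, an actin-binding protein gene, held 1, 8 and 0, and CLVS1 held 2, 6 and 0. AL358075.4 held 2, 3 and 3 peaks.

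**Figure D3:**
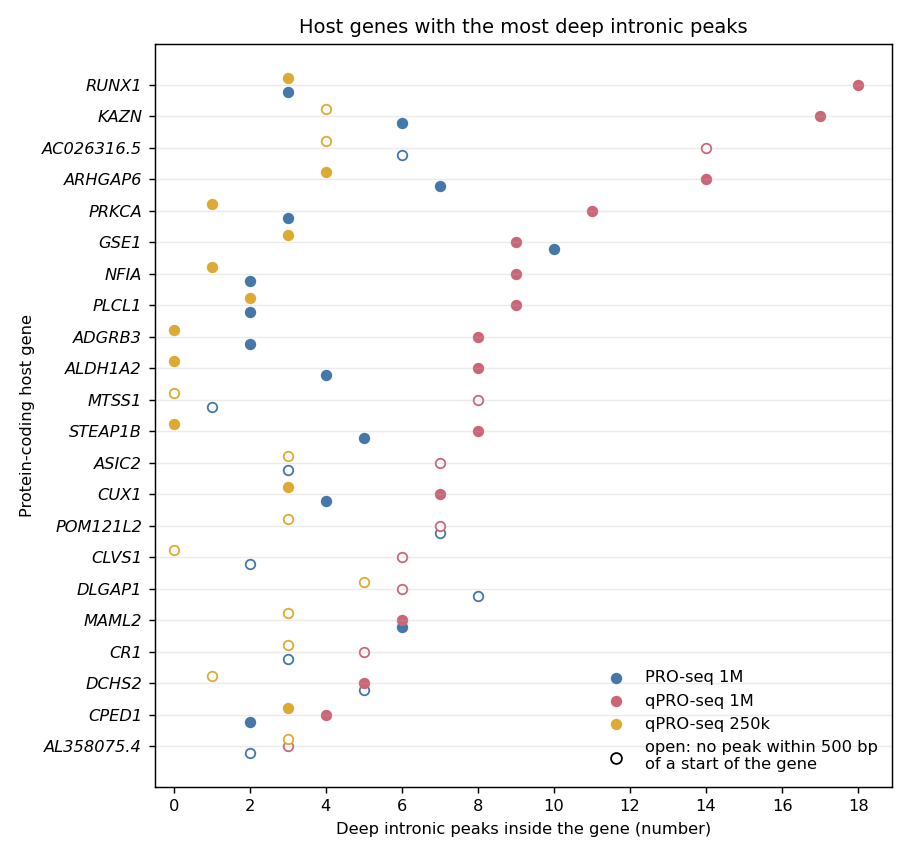
Number of deep intronic peaks in each named protein-coding host gene, 1 point per list. Filled points mark lists with a peak within 500 bp of a start of that gene and open points mark lists without; RUNX1 leads with 18 peaks in qPRO-seq 1M, and AC026316.5, ASIC2, DLGAP1 and CR1 are open in every list.

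POM121L2 differed from these hosts in length. This nucleoporin-related gene on chromosome 6 has only 15.2 kb of deep intronic sequence but held 7, 7 and 3 peaks, or 46.2, 46.2 and 19.8 per 100 kb, and had no start peak in any list. Of these peaks, 3, 3 and 2 lay over tRNA genes of the RefSeq annotation, TRV-TAC4-1, TRQ-CTG5-1 and TRS-GCT2-1. The latter 2 were covered in all lists. Among all deep intronic peaks, 10 (0.996%, 0.542 to 1.82), 12 (0.465%, 0.266 to 0.811) and 4 (0.800%, 0.312 to 2.04) lay over a RefSeq tRNA gene, against 0.923%, 0.720% and 1.36% of all peaks. In the pseudogene ZNF767P 3, 4 and 0 peaks lay over tRNA genes, and CPNE4, FNBP1L and SLC47A1 also had such peaks. Genes of transfer RNA are transcribed by RNA polymerase III, which run-on sequencing also records. The tRNA hosts were chosen after their values were seen, as were the noncoding hosts below.

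Among long noncoding hosts, MIR3681HG held 8, 14 and 6 deep intronic peaks and had a start peak in every list. AC004917.1 held 5, 11 and 2 without a start peak, and AL138720.1 held 4, 11 and 2 with one in every list. LINC02320 was compact: 7, 11 and 6 peaks lay in 57.9 kb of deep intronic sequence on chromosome 14. They joined into 2, 3 and 4 elements within 500 bp, and the gene had a start peak in both 1M lists. The strongest, chr14:101710011-101710710, stood at percentile 99.4 in qPRO-seq 1M, 19.7 kb from a start.

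Whether the start of a host also carried a peak was asked for all protein-coding genes. A start peak was a peak within 500 bp of any annotated start of the gene. In PRO-seq 1M, 315 of 540 hosts (58.3%, 54.1 to 62.4) had one, against 57.2% of protein-coding genes with deep intronic sequence and 52.9% of all protein-coding genes. In qPRO-seq 1M, 738 of 1179 hosts (62.6%, 59.8 to 65.3) had one, against 59.1% and 54.5%. In qPRO-seq 250k, 156 of 311 hosts (50.2%, 44.6 to 55.7) had one, against 47.9% and 44%. The hosts' shares were near these backgrounds. Hosts exceeded other genes with deep intronic sequence by 1.24 points (-3.09 to 5.46), 4.03 points (1.03 to 6.96) and 2.36 points (-3.26 to 7.98). The qPRO-seq 1M interval included 0 with lists of equal length (1.44 points) and beyond 20 kb (4.08 points). Of the 1232 protein-coding hosts of any list, 433 (35.1%, 32.5 to 37.9) had no start peak in any list and 589 had one in all 3. Of the 7947 other protein-coding genes with deep intronic sequence, 3157 (39.7%, 38.7 to 40.8) had none in any list.

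The difference was larger among long genes, where many hosts lay. Among the 1836 genes with the most deep intronic sequence (83.4 kb or more), 56.2% of 272 hosts and 41.7% of other genes had a start peak in PRO-seq 1M, a difference of 14.6 points (8.13 to 20.8). In qPRO-seq 1M it was 59.1% of 607 hosts against 40.9%, or 18.2 points (13.4 to 22.9). In qPRO-seq 250k it was 46.1% of 152 hosts against 34.4%, or 11.6 points (3.55 to 19.8). In the other groups of shorter genes the interval of the difference included 0 in every list, except for a difference of 8.92 points, with an interval above 0, in qPRO-seq 1M at 34.6 to 83.4 kb. Compared within deciles of deep intronic length, hosts exceeded other genes by 8.19 points (3.83 to 12.6), 13.0 points (9.81 to 16.1) and 9.05 points (3.43 to 14.7). Density gave the same order. Genes with a start peak held 1.77 deep intronic peaks per Mb of their deep sequence in PRO-seq 1M against 0.841 in genes without, with 4.66 against 2.04 in qPRO-seq 1M and 0.891 against 0.455 in qPRO-seq 250k. Long noncoding hosts had a start peak in 28.9%, 33.8% and 26.8% of cases, against 16.7%, 19.1% and 13.1% of other long noncoding genes with deep intronic sequence. These differences were 12.1 points (6.00 to 19.1), 14.7 points (10.1 to 19.6) and 13.7 points (6.29 to 22.6).

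**Figure D4:**
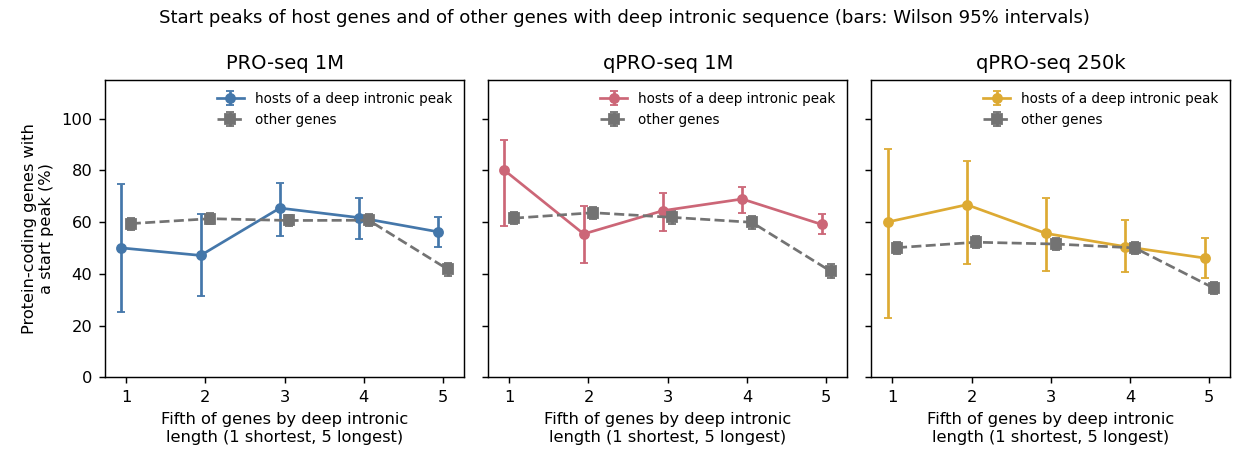
Share of protein-coding genes with a start peak (%), for hosts of a deep intronic peak and for other genes with deep intronic sequence, in 5 equal groups of genes by deep intronic length. Points are shares and bars Wilson 95% intervals; in the longest group hosts lie above other genes in each list, by 14.6, 18.2 and 11.6 points.

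In qPRO-seq 1M, deep intronic peaks leaned towards the 5′ side of their protein-coding hosts. Each peak was counted once per host. When hosts were divided into 3 equal parts from start to end, the first part held 37.5% (35.4 to 39.7) of the qPRO-seq 1M peaks and 33.0% of the hosts' deep intronic sequence. The last part held 26.0% (24.1 to 27.9) of the peaks and 30.9% of the sequence. In PRO-seq 1M the first part held 35.9% (32.6 to 39.3) of peaks and 33.2% of sequence, and in qPRO-seq 250k 38.0% (33.3 to 43.0) and 33.3%. The last part held 28.4% (25.3 to 31.6) of peaks and 30.8% of sequence in PRO-seq 1M, and 29.3% (24.9 to 34.0) and 31.2% in qPRO-seq 250k. The intervals of the peaks' shares for both parts thus reached the share of sequence in these 2 lists. The nearest annotated start was one of a host's own for 58.6% (55.5 to 61.6), 59.2% (57.3 to 61.1) and 57.4% (53.0 to 61.7) of deep intronic peaks, and belonged to another gene for the rest.

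In 5 gene lists, deep intronic peaks per Mb of the listed genes' deep sequence were compared with the values over all protein-coding genes, 1.24 in PRO-seq 1M, 3.23 in qPRO-seq 1M and 0.603 in qPRO-seq 250k. Of all protein-coding genes with deep intronic sequence, 5.88%, 12.8% and 3.39% were hosts and 57.2%, 59.1% and 47.9% had a start peak. Blood transcription factors had 3.03, 10.8 and 2.36 per Mb. Of the 18 such genes with deep intronic sequence, 5, 7 and 5 were hosts (27.8%, 38.9% and 27.8%), and RUNX1 contributed 18 of the 32 qPRO-seq 1M peaks. IKZF1, the Ikaros factor of lymphoid cells, held 0, 4 and 1 peaks. SOX6, an erythroid repressor of globin genes, held 1, 4 and 0. ZBTB16, known from a leukaemia fusion, held 2, 3 and 1 and had no start peak, while MEIS1 held 0, 1 and 0. TCF3 was named for its values: its only deep intronic peak, in 7.97 kb of deep sequence, stood at percentile 99.61 in PRO-seq 1M and 98.76 in qPRO-seq 1M but 23.75 in qPRO-seq 250k.

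Genes of BCR-ABL1 signalling had 2.97, 7.71 and 0 peaks per Mb, in 3, 7 and 0 hosts of 26 (11.5%, 26.9% and 0%, against 5.88%, 12.8% and 3.39% of all). GAB2, an adaptor needed for transformation by BCR-ABL1, held 2, 5 and 0 peaks, the highest at percentile 25.1. The tyrosine kinase gene PTK2B held 2, 3 and 0. CBL, LYN and PIK3CB each held 1 peak in qPRO-seq 1M and none in the other lists. Genes of the red cell membrane, heme and iron had 4.77, 16.7 and 0 per Mb, but only 0.419 Mb of deep sequence. Of the 16 with deep sequence, 2, 3 and 0 were hosts (12.5%, 18.8% and 0%, against 5.88%, 12.8% and 3.39% of all). The 7 qPRO-seq 1M peaks lay in ANK1 (3), EPB41 (3) and SPTB (1). All are cytoskeleton genes of the red cell with a start peak in every list. The 3 EPB41 peaks joined into 1 element within 500 bp. The highest percentiles in qPRO-seq 1M were 39.7 in ANK1, 44.1 in EPB41 and 61.0 in SPTB. Only the SPTB peak was overlapped by another list, PRO-seq 1M. A count of 0 in qPRO-seq 250k allows up to 3 peaks in either list of genes.

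Chromatin regulators had a density close to that over all genes, at 1.04, 3.64 and 0.520 per Mb. Of 42, 4, 10 and 2 were hosts (9.52%, 23.8% and 4.76%, against 5.88%, 12.8% and 3.39% of all). A start peak was present for 40, 39 and 36 of the 42. JARID2, a Polycomb cofactor, held 1, 3 and 1 peaks; the deacetylase gene HDAC9 held 1, 2 and 1 with no start peak, and the coactivator gene NCOA3 held 0, 2 and 0. The deacetylase gene HDAC4 held 1, 1 and 0. In both 1M lists the HDAC4 peak touched a RefSeq start window of HDAC4 itself, at percentiles 5.90 in PRO-seq 1M and 56.0 in qPRO-seq 1M. Genes of neuronal adhesion and the synapse had the lowest density, 0.381, 1.17 and 0.272 per Mb, over 36.8 Mb. Of the 32, 7, 17 and 7 were hosts (21.9%, 53.1% and 21.9%, against 5.88%, 12.8% and 3.39% of all), and 5, 7 and 3 had a start peak, against 57.2%, 59.1% and 47.9% of all. Each of the 32 had 478 kb or more of deep intronic sequence, within the longest group of genes (83.4 kb or more). In that group 14.8%, 33.1% and 8.28% of genes were hosts. Start peaks were present there in 56.2%, 59.1% and 46.1% of hosts and 41.7%, 40.9% and 34.4% of other genes. After ASIC2, GPC5 held 3, 6 and 1 peaks, DPP6 held 2, 5 and 1, CDH13 held 0, 3 and 0, and GPC6 held 2, 3 and 0. CADM2, named for its values, had a peak with a high score in every list: spanning chr3:85504101-85504900 in PRO-seq 1M and 118391 bp from a start there, it stood at percentiles 99.5, 99.63 and 99.36. Densities of the gene lists were not tested.

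**Figure D5:**
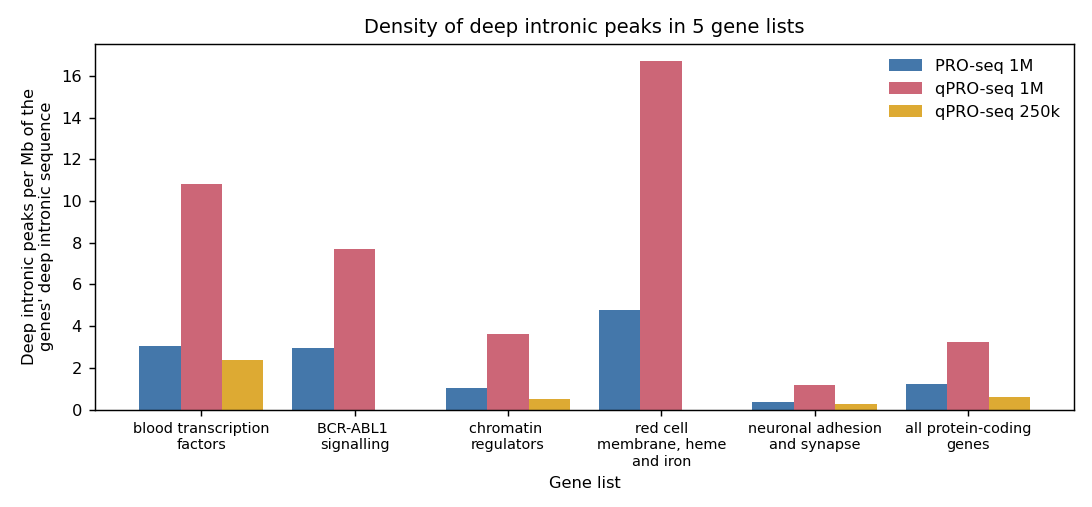
Deep intronic peaks per Mb of the deep intronic sequence of the genes in each of 5 gene lists and of all protein-coding genes, for the 3 peak lists. Blood transcription factors stand at 10.8 and neuronal genes at 1.17 per Mb in qPRO-seq 1M, against 3.23 for all protein-coding genes; the red cell bar rests on 0.419 Mb.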

How the data were processed

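Nascent transcription was measured by PRO-seq and qPRO-seq in untreated K562 cells, with 3 groups of 2 replicates. Per the submitters' processing notes, fastp 0.20.0, UMI-tools, Bowtie2 2.3.5.1 and deepTools 3.1.3 were used with hg38/GRCh38. The authors deposited 1 list of dREG peaks per group, with a score (0.237 to 1.54) and a p-value (at most 0.0500) for each peak; how replicates were combined and the filters are not given in the sources used here. Read depth is unknown.

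Peaks were placed against GENCODE release 29 with Python 3.11.15, numpy 2.4.6 and pandas 2.3.3, and figures drawn with matplotlib 3.10.9. A peak was deep intronic if it lay within a gene, touched no exon and was more than 10 kb from every transcript start; an overlap was at least 1 bp and a start peak one within 500 bp. Shares have 95% Wilson intervals and differences 95% Newcombe intervals, or stratified ones within deciles; no p-value was computed. The scripts were tested on simulated data. Start windows, tRNA genes and printed sequences came from RefSeq GRCh38.p14. No genome sequence was used, so motifs under the peaks themselves were not analysed here.

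Named genes were the 10 protein-coding hosts with most peaks in each list, the 5 with most peaks and no start peak in qPRO-seq 1M, hosts of the 5 top-scored shared and 3 top-scored unshared qPRO-seq 1M peaks, those of the nearest and farthest peaks, and up to 5 per gene list. Other genes were chosen after their values were seen. Some genes that the rule names are not reported here. The members and lists were chosen with earlier results of these data known. Alternatives were another p limit, distance, start window or overlap, merged peaks, lists of equal length, high scores, protein-coding annotation, and comparison within deciles.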

Additional observations from a re-analysis of the deposited data

How the results depend on the processing

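Of 174 alternative values, 111 kept their call or stayed within their counting interval (for counts, within 1.5 times), 54 moved and 9 changed their call. Values follow the order of lists of the report, from PRO-seq 1M to qPRO-seq 250k, unless named, and the cause was not tested. The number of deep intronic peaks was 415 and 732 in the first 2 lists when all were reduced to equal length, 267, 996 and 156 with scores at or above the list median, 525, 1402 and 262 beyond 20 kb, and 1509 in PRO-seq 1M beyond 5 kb. Their share of the list was 3.66%, 6.37% and 2.78% with a deposited p of at most 0.01, 5.32%, 8.98% and 3.86% with peaks within 500 bp merged, and 2.67% and 4.70% at equal length in the 1M lists. It was 2.16%, 5.22% and 2.00% for high scores, 2.12%, 3.67% and 1.68% beyond 20 kb, and 6.11%, 9.91% and 4.73% beyond 5 kb. Density at equal length was 0.516 and 0.910 per Mb in the 1M lists.

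The overlapped share of PRO-seq 1M members by the qPRO-seq 1M list was 78.6% at equal length, 77.4% when 50% of both peaks had to overlap and 92.5% with every list reduced to high scores; by the qPRO-seq 250k list it was 63.9%, 34.7% and, with the stricter p, 35.4%. For qPRO-seq 1M members it was 45.5%, 29.7% and 26.4% by the PRO-seq 1M list under equal length, 50% overlap and high scores. By the 250k list it was 47.1%, 15.5% and 15.9%, and 17.2% with the stricter p. For members of the 250k list it was 55.6%, 69.6% and 69.9% by the PRO-seq 1M list and 70.2%, 81.0% and 97.4% by the qPRO-seq 1M list. The difference from intronic peaks nearer to a start reversed at equal length, to 9.50 points (PRO-seq 1M members) and 6.45 (members of the 250k list) for overlap by the qPRO-seq 1M list. For overlap of qPRO-seq 1M members by the 250k list its interval came to include 0 with merged peaks (-1.78), equal length (-3.70) and 50% overlap (-1.53).

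The share of hosts with a start peak was 48.0%, 52.9% and 29.8% for high scores, 53.5%, 58.7% and 44.2% beyond 20 kb, and 49.3% in qPRO-seq 1M at equal length. The excess of hosts over other genes in qPRO-seq 1M had an interval that included 0 at equal length (1.44 points) and beyond 20 kb (4.08). Within deciles of deep intronic length the interval left 0 for PRO-seq 1M (8.19) and for the 250k list (9.05). Motif shares were not run, since no genome sequence was used. No paired analysis was possible because each group has 1 list for both replicates. Leaving out a replicate could not be done for the same reason.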

Other observations

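Outside chromosomes 1 to 22 and X, the lists held 75, 220 and 44 peaks, in the order of the report, of which 22, 41 and 15 lay on sequences with annotated genes. None of these was deep intronic by the same rule, and a count of 0 allows up to 3.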
